A study of Sorghum bicolor with 24 samples.

Results

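Bulk RNA of a plant stem holds transcripts of every tissue in the piece, whereas laser capture microdissection collects only the cells that are cut out of a section. The genes described here were present in bulk whole stem of sorghum and low in each of 5 captured stem cell types. They were chosen from a table of 34117 genes as those at 5 CPM or more in all 4 whole stem libraries whose median CPM in each captured type was at most 25% of the whole stem median. CPM is a gene's count per 1000000 counts of its library. The rule found 34 genes, out of 13599 that reached 5 CPM in all 4 whole stem libraries. Because whole stem and captured levels chose them, that contrast is described below and not tested.

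All samples came from Sorghum bicolor cultivar Wray, raised with 14-h days in a greenhouse. The internode at phytomer 8, the youngest that had finished elongating, was taken at 74 days from vegetative plants, and the 4 replicates of a group are from 4 plants per the labels' protocols. Laser capture gave 4 libraries of each of 5 types. These were epidermis and pith parenchyma, and 3 vascular types called phloem, vascular parenchyma and xylem sclerenchyma in the sample labels. The collection protocol lists xylem parenchyma in place of vascular parenchyma. Whole stem, also 4 libraries, came from these internodes without capture. All libraries were made by amplification of full-length cDNA, and the labels give a single genotype and no treatment. Whole stem libraries held 16189208 to 29605470 counts and captured libraries 2769555 to 38880291. Epidermis replicates 1 and 2 and phloem replicate 3 had 10439 to 11021 genes above 1 CPM, against 13378 or more in each of the other captured libraries and 18421 or more in whole stem.

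A grass internode has an epidermis over a rind of thick-walled cells, and vascular bundles scattered through a ground tissue of thin-walled pith parenchyma. Each bundle contains phloem, which carries sugars, and xylem, whose dead vessels carry water and whose fibres give strength. Rind tissue under the epidermis and vessel elements are not among the captured types named in the labels. The count table gives identifiers only, and 0 of the 34117 matched the gene table supplied for name lookup. No function, position, length or sequence of a member is therefore given, the labelled cell types could not be checked against marker genes, and no tissue's marker list could be read among the 34 genes. Identity of tissue and effects of capture, sectioning and RNA input differ together between whole stem and the captured libraries and cannot be told apart by this design.

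One captured library went against the description of these genes as low. Pith parenchyma replicate 2 held 31 of the 34 members (91.2%) above 25% of their whole stem median, near the 86.9% of all 13599 genes in that library. It held 23 of the 34 at or above that median, a larger share than the 45.3% of all these genes. In the other 3 pith parenchyma libraries, 3, 6 and 0 members were above 25%, and in the 16 libraries of the other types 1 to 6. A type's median over 4 libraries is little moved by a single high value, so the rule admitted genes that were abundant in 1 of 20 captured libraries. Results below are given with and without this library.

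**Figure D1:**
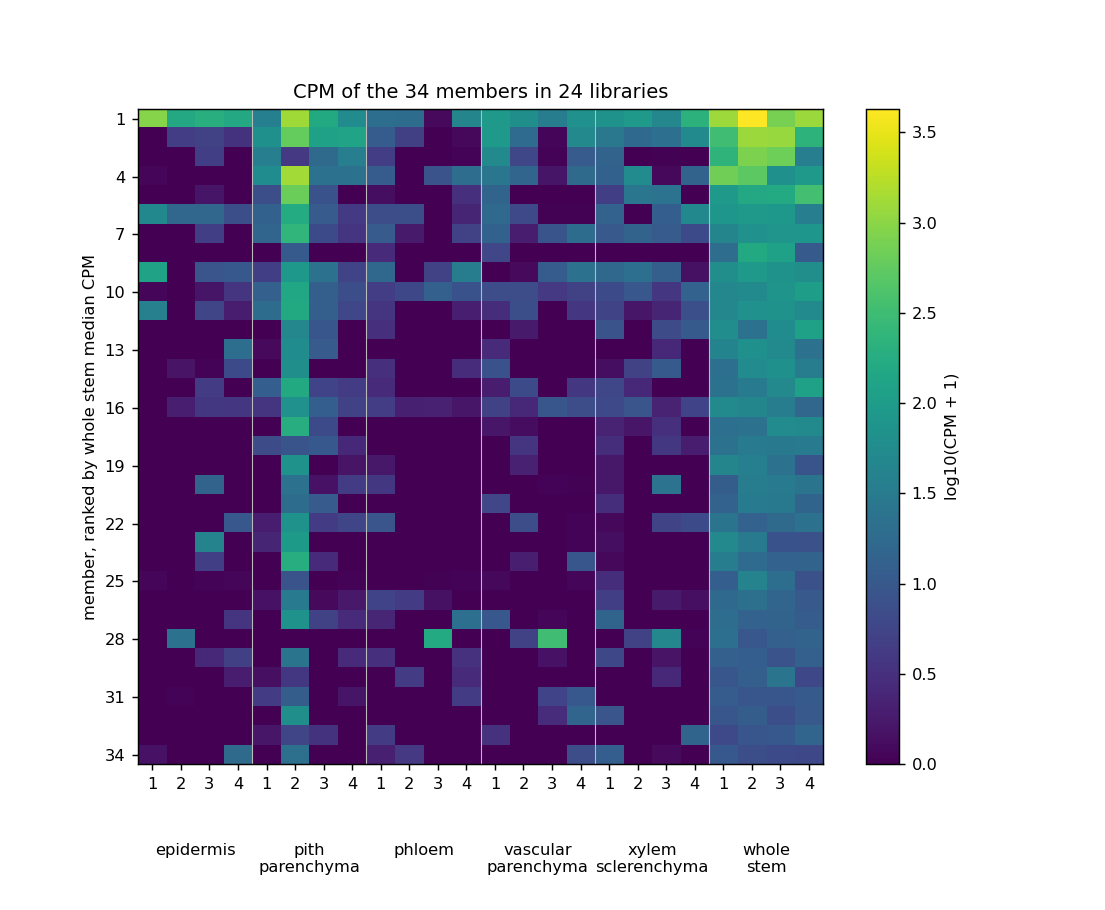
Expression of the 34 members (rows, in order of whole stem median) in the 24 libraries (columns, numbered by replicate within group), coloured by log10(CPM + 1). Whole stem columns and the single column of pith parenchyma replicate 2 are bright, and most other captured values are near 0.

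Over the 34 members, the whole stem median ranged from 5.90 to 1225 CPM, with a middle value of 33.5 CPM, close to the 30.7 CPM of all 13599 genes. Whole stem medians reached 100 CPM in 5 members and 20 CPM in 21, and in 1940 and 8966 of all 13599 genes. Summed over members, the level was 3388, 8072, 3929 and 2834 CPM in whole stem replicates 1 to 4. It was 285, 5925, 453 and 287 CPM in pith parenchyma. Pith parenchyma replicate 2 thus lay inside the whole stem range, and the other 3 lay below its lowest library.

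The remaining types were low in all 16 libraries. Epidermis held 1123, 195, 297 and 236 CPM summed over the members, phloem 118, 45.4, 188 and 142, vascular parenchyma 345, 141, 399 and 237, and xylem sclerenchyma 245, 251, 227 and 387. In bulk whole stem, a higher share of a cell type and more RNA per cell cannot be told apart. None of the 19 captured libraries other than pith parenchyma replicate 2 reached the lowest whole stem library. Epidermis replicate 1 was the highest of them, and most of its sum, 915 CPM, was a single gene, Sobic.006G211701. Without that gene the 19 libraries ranged from 27.1 to 366 CPM, pith parenchyma replicate 2 held 4637 and whole stem 1610 to 3832.

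**Figure D2:**
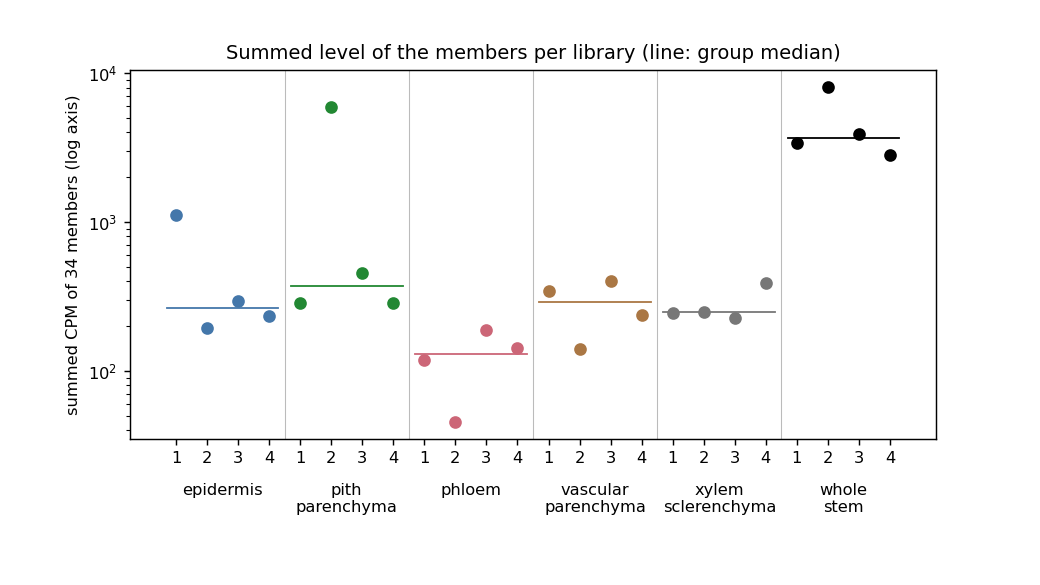
Summed CPM of the 34 members in each library on a log axis, with a line at each group's median. Pith parenchyma replicate 2, at 5925 CPM, sits among the whole stem libraries, and the other 19 captured libraries lie between 45.4 and 1123 CPM.

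Pith parenchyma replicate 2 was not closer to whole stem in general. Across the 13599 genes, which are not independent replicates, its Spearman correlation with the whole stem libraries averaged 0.752, against 0.747, 0.763 and 0.740 for pith parenchyma replicates 1, 3 and 4. Its mean correlation with the other pith parenchyma libraries was the lowest of the 4, at 0.672 against 0.730 to 0.762. Its total, 11193692 counts, was inside the pith parenchyma range of 8247350 to 12740916. It held 15420 genes above 1 CPM, with 14639 to 16023 in the others.

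Values per gene follow as description, since the rule used these levels. Relative to the whole stem median, the middle member was at 1.83 times in pith parenchyma replicate 2, and at 0.0362, 0.0924 and 0.0373 times in replicates 1, 3 and 4. The same quantity over all 13599 genes was 0.926 in replicate 2 and 0.897, 0.811 and 0.792 in the others. For 27 of the 34 members replicate 2 was the highest captured library, a place it took for 8.24% of all 13599 genes. The most extreme member was ranked 24th by whole stem median, with 183 CPM in that library and a whole stem median of 15.4 CPM, a ratio of 11.9.

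**Figure D3:**
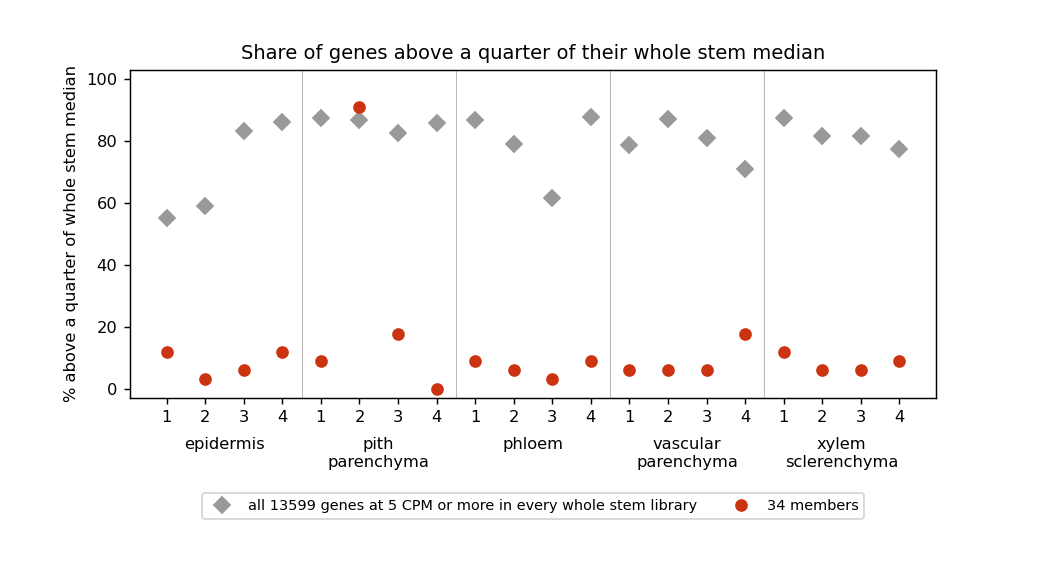
Percentage of genes above 25% of their whole stem median in each captured library, for the 34 members (circles) and for all 13599 genes at 5 CPM or more in every whole stem library (diamonds). Members reach 91.2% in pith parenchyma replicate 2, where all genes are at 86.9%, and 0 to 17.6% in the other 19 libraries, where all genes range from 55.3% to 87.7%.

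Genes outside the membership were also shared between that library and whole stem. For each captured library, genes at 20 CPM or more there and at least 4 times the highest of the other 19 captured libraries were counted, limits chosen after the values were seen. Pith parenchyma replicate 2 had 56 such genes, of which 17 were members. Of its 39 others, 27 (69.2%) were at 5 CPM or more in all 4 whole stem libraries, with a median of 164 CPM in that library and of 40.1 CPM among their whole stem medians. The 19 other libraries together had 405 such genes, none of them members, and 61 (15.1%) were at 5 CPM or more in all whole stem libraries. Among the 12 of these libraries with at least 5 such genes the share ran from 0 to 50%. Epidermis replicate 1, with the most such genes, had 145, and 21 of them (14.5%) met the whole stem level.

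**Figure D4:**
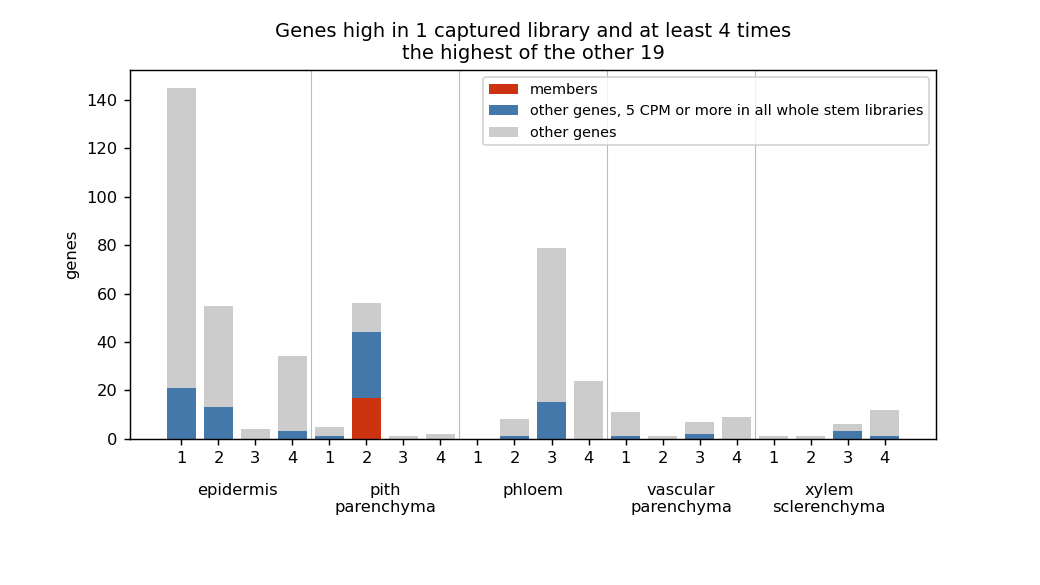
Number of genes at 20 CPM or more in 1 captured library and at least 4 times the highest of the other 19, split into members, other genes at 5 CPM or more in all whole stem libraries, and the rest. Members, which meet the whole stem level by the rule, appear only in the bar of pith parenchyma replicate 2. Of the 39 other genes in that bar, 27 meet it.

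The same measure was read in replicates not used in choosing. Members were chosen again from 3 replicate numbers in all groups and read in the number left out, as the share of values at most 25% of the whole stem value of that number. Chosen without replicate 2, 45 genes met the rule. In replicate 2, 13.3% of them met this limit in pith parenchyma, close to the 13.2% of all 13599 genes there. In the other 4 types 84.4% to 95.6% of them did. With replicate 1 left out, 62 genes were chosen, and the share was 45.2% in pith parenchyma and 74.2% to 80.6% in the other types. With replicate 3 left out, 47 were chosen, with 68.1% in pith parenchyma and 72.3% to 91.5% elsewhere. With replicate 4 left out, 81 were chosen, with 58.0% in pith parenchyma and 45.7% to 80.2% elsewhere. Pith parenchyma thus had the lowest share with replicates 1, 2 and 3 left out, most of all replicate 2, and another type had it with replicate 4 left out. Over all 5 types the share was 70.6%, 74.7%, 80% and 64.7% for replicates 1 to 4 left out, against 21.3%, 21.3%, 21.6% and 18.6% of all 13599 genes.

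Outside pith parenchyma replicate 2, members were often undetected. Over the other 19 libraries 50.8% of member values were exactly 0, compared with 8.61% for all 13599 genes. Epidermis had a median of 0 for 23 members and pith parenchyma for 5. Among the vascular types it was 0 for 15 members in phloem, and for 14 and 12 in vascular parenchyma and xylem sclerenchyma. Over all 13599 genes the median was 0 for 3.48% in epidermis and 1.51% in pith parenchyma. In phloem, vascular parenchyma and xylem sclerenchyma these shares were 2.39%, 2.75% and 1.79%. The rule capped these medians, so the counts are given as description. In epidermis replicates 1 and 2, 28.3% and 26.5% of all these genes were at 0. A count of 0 allows up to 3 counts, which is 0.0772 CPM in epidermis replicate 3 and 1.08 CPM in phloem replicate 1. These floors cover counting error only, since the labels name no molecular identifiers. Member values above 25% of the whole stem median numbered 52 of 646 (8.05%) in the 19 libraries, spread over 23 members, so 11 members were at or under 25% in all of them.

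The captured type with the highest median was pith parenchyma for 18 members, xylem sclerenchyma for 5, phloem for 4, epidermis for 3 and vascular parenchyma for 3, and 1 member was at 0 in all 5 medians. Without pith parenchyma replicate 2 the numbers were 12, 6, 4, 3 and 5, with 4 at 0 in all. Over all 13599 genes the highest median was in pith parenchyma for 28.1%, and for 27.6% without that library. It was in xylem sclerenchyma for 14.8%, phloem for 21.2%, epidermis for 17.9% and vascular parenchyma for 17.9%, and 0.00735% were at 0 in all. Without that library these shares were 15.1%, 21.3%, 17.9%, 18.1% and 0.0368%. The rule used these medians, so the counts are given as description.

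Few members stood clear of every captured library. In 3 of the 34, Sobic.001G158700, Sobic.001G513700 and Sobic.010G176800, the lowest whole stem library was above all 20 captured libraries, as in 0.0662% of the 13599 genes. Without pith parenchyma replicate 2 this held for 22 members, and for 0.537% of those genes. The rule used this contrast, so these shares are given as description. The 3 genes, named after their values were seen, are described next together with the genes named by rule.

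The most even of them was Sobic.001G158700, at 21.4, 30.2, 28.6 and 31.3 CPM in whole stem (27.9 ± 4.43, SD, n = 4). Pith parenchyma held 5.94, 7.68, 8.97 and 1.57 CPM. It was at 0 in all epidermis and phloem libraries and in 3 of 4 vascular parenchyma libraries, with 2.54 CPM in the other, and xylem sclerenchyma held 2.01, 0, 2.84 and 0.982 CPM. Pith parenchyma was the captured type in which all 4 libraries had reads, and here replicate 2 was not set apart. The whole stem median was 3.27 times the highest captured library.

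Sobic.001G513700 was at 0 in 17 of the 20 captured libraries, and its median was 0 in all 5 types. The 3 libraries with reads were pith parenchyma replicate 2 at 9.56 CPM, vascular parenchyma replicate 1 at 4.88 and phloem replicate 1 at 1.81. Whole stem held 19.1, 161, 116 and 9.76 CPM, so replicates 2 and 3 were several times higher than 1 and 4. Its lowest whole stem value and its highest captured value were nearly equal. The whole stem median, 67.8 CPM, was 7.09 times the highest captured library.

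Sobic.010G176800 was a low gene, at 8.46, 11.4, 24.2 and 5.13 CPM in whole stem. It was at 0 in 14 captured libraries, and the highest captured value was 3.28 CPM, in phloem replicate 2. Whole stem replicate 3 was the highest, and the lowest was little above the highest captured library.

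Sobic.001G542100 had the largest fold over the highest captured library, 8.27 times, but did not stand clear in all whole stem libraries. Whole stem held 225, 827, 668 and 35.2 CPM. Pith parenchyma held 35, 2.95, 17.0 and 35.2 CPM, and vascular parenchyma 54.0, 4.92, 0.0878 and 9.99. Whole stem replicate 4 was therefore within the captured range, and pith parenchyma replicate 2 was the lowest of its type, the reverse of most members.

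Sobic.006G211701 had the highest whole stem median of the members, with 1227, 4240, 775 and 1223 CPM. Pith parenchyma held 35.6, 1288, 157 and 55.3 CPM and epidermis 915, 153, 190 and 154 CPM. The 12 libraries of the vascular types lay between 0.255 and 213 CPM. Both high captured libraries, pith parenchyma replicate 2 and epidermis replicate 1, exceeded whole stem replicate 3. It was the only named member with reads in all 20 captured libraries.

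Sobic.001G304100 followed, at 330, 1224, 1182 and 223 CPM in whole stem (740 ± 537, SD, n = 4). Pith parenchyma held 64.2, 583, 118 and 131 CPM, epidermis 0 to 4.09, phloem 0 to 10.5, vascular parenchyma 0.176 to 88.6 and xylem sclerenchyma 16.6 to 52.2. All 4 pith parenchyma libraries were above all epidermis and phloem libraries. Replicate 2 again overlapped with whole stem, and the other captured libraries did not.

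Among the captured types, the difference between types was tested separately, in a fit that held no whole stem library. edgeR's quasi-likelihood F test across the 5 types, with Benjamini-Hochberg adjustment over 19502 genes, called 16% of all genes at an adjusted p under 0.05. Of the 34 members 30 passed the filter on low counts and 4 were called, or 13.3% of those 30, close to the share of all genes. At an unadjusted p under 0.05 there were 13 members (43.3% of the 30), with 28.5% of all genes. Without pith parenchyma replicate 2, 2 members of 30 were called against 15.3% of all genes. The rule had limited the members' medians in these captured types, so their shares are not independent of the choice and are given as description.

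The member with the smallest adjusted p was Sobic.009G197300, at 0.00249 in edgeR's test. Pith parenchyma held 57.0, 1310, 21.5 and 21.6 CPM, and epidermis held 0.103 CPM in replicate 1 and 0 in the others. Phloem held 10.5, 0, 7.43 and 19 CPM, vascular parenchyma 25.2, 14.1, 0.615 and 16.8, and xylem sclerenchyma 12.2, 55.5, 0.178 and 13.4. Every pith parenchyma library was above every epidermis library. In whole stem the gene was at 690, 523, 66.0 and 90.0 CPM, so pith parenchyma replicate 2 was above all of these. The call remained without that library, at an adjusted p of 0.0341 by edgeR. Of 26 alternatives, 25 gave an adjusted p for this gene, from 0.00176 to 0.06, and 24 called it. The 0.06 was from limma voom with quality weights, and DESeq2 gave no p for this gene.

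The other 3 calls were lost without that library, and also with the replicate number as a block in the edgeR fit. For Sobic.001G354700, pith parenchyma held 0, 179, 5.46 and 0 CPM, all epidermis and phloem libraries were at 0, and no vascular parenchyma or xylem sclerenchyma library exceeded 2.10 CPM. Whole stem held 20.3, 22.4, 55.7 and 52.7 CPM. Its edgeR adjusted p was 0.0204, 0.161 without pith parenchyma replicate 2 and 0.172 with the replicate block. That of Sobic.001G304100 was 0.0216, and in these edgeR fits 0.0821 and 0.0568. Both calls were lost in this 1 of the 20 omissions of a single library. Sobic.001G268700, at 0.482, 29.9, 0.243 and 0.785 CPM in pith parenchyma and 9.26 to 20.9 CPM in whole stem, had an edgeR adjusted p of 0.0453. Its call was lost in 17 of the 20 single omissions, so the loss was not particular to pith parenchyma replicate 2, although that library was far above the others of its type. The edgeR adjusted p was 0.0657 without that library and 0.11 with the block. Sobic.006G211701, at an edgeR adjusted p of 0.0617 with all libraries, was called without pith parenchyma replicate 2 (0.0291), without pith parenchyma replicate 1 (0.0425), without phloem replicate 3 (0.0495) and with DESeq2 (0.00485).

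A different set of libraries held Sobic.006G026100, singled out after its values were seen. It was at 0 in all 4 pith parenchyma libraries. Vascular parenchyma replicate 3 held 329 CPM, phloem replicate 3 held 163, xylem sclerenchyma replicate 3 held 46.1 and epidermis replicate 2 held 21.6, while all other captured libraries were at 4.26 CPM or less and 13 were at 0. Whole stem held 20.0, 8.68, 11.8 and 13.2 CPM. These 4 captured libraries were above every whole stem library, and the type medians were at most 2.17 CPM.

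**Figure D5:**
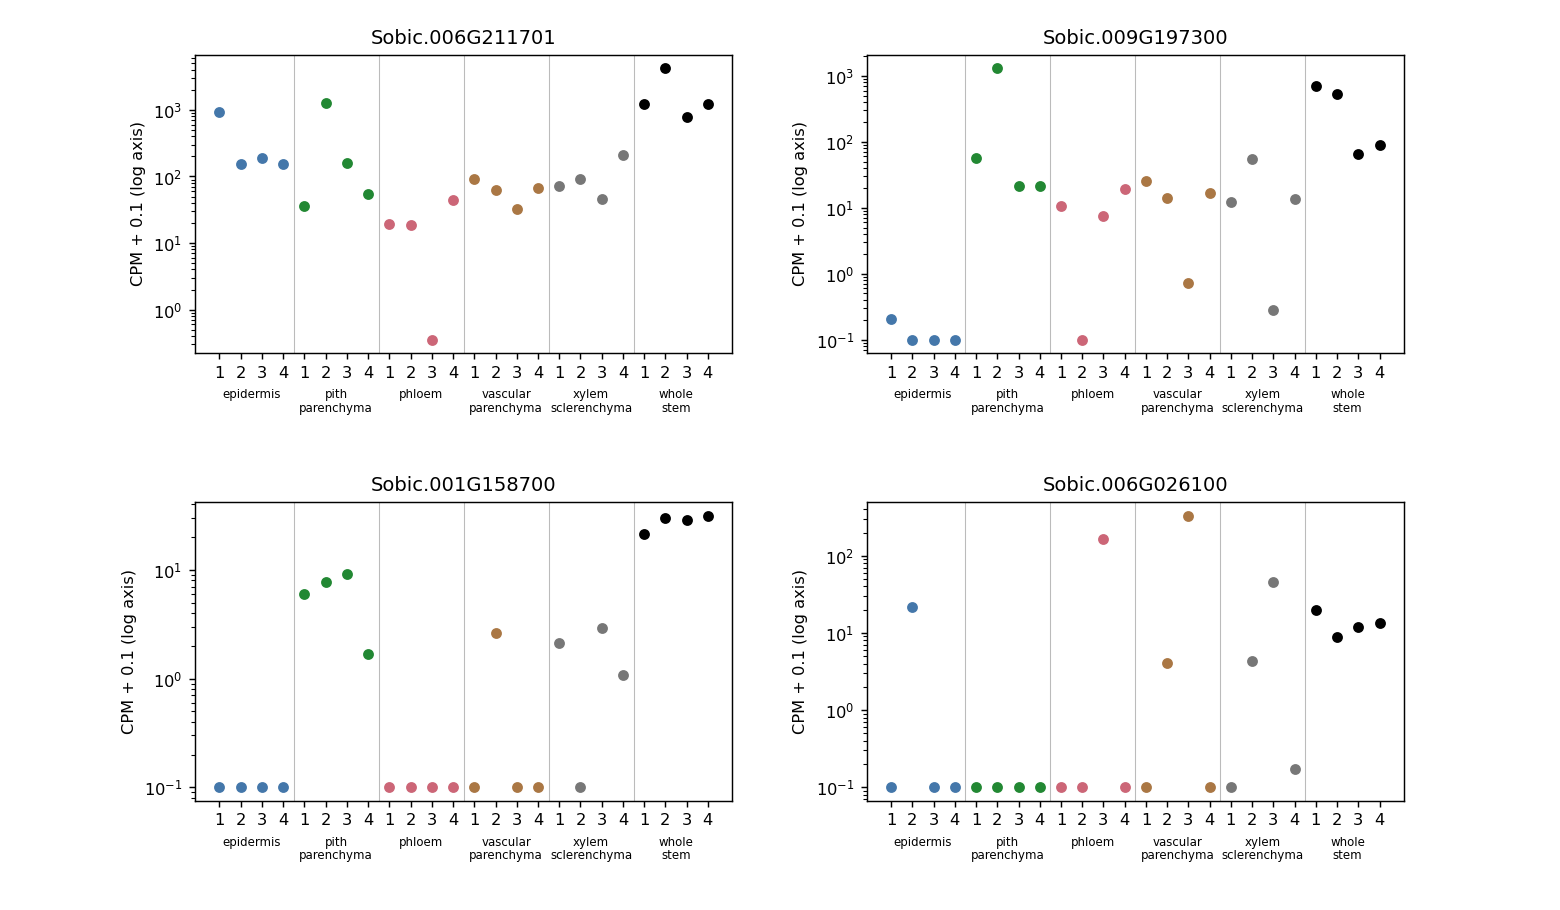
CPM plus 0.1 on a log axis for 4 members in all libraries, numbered by replicate. In pith parenchyma replicate 2 Sobic.006G211701 is within the whole stem range and Sobic.009G197300 above it, Sobic.001G158700 is below whole stem in all captured libraries, and Sobic.006G026100 is highest in replicate 3 of the vascular types.

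Members also had a wider spread among the whole stem libraries than the middle gene. The rule used each gene's lowest and median whole stem level, so this spread is not independent of the choice and is given as description. The coefficient of variation over the 4 libraries had a median of 0.425 over members, from 0.107 to 0.969, against 0.156 over all 13599 genes. The highest library was at least 4 times the lowest in 12 members (35.3%) and in 1.90% of all genes. In 12 members whole stem replicates 2 and 3 were both above 1 and 4, an order found in 15.2% of all genes. Replicates 1 and 2 were both above the others in 8 members and in 35.5% of all genes. The labels record no difference between the 4 plants.

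Other properties recorded in the table were compared with all 13599 genes, with no test. In 11 of the 34 (32.4%) at least 1 library had a fractional count, which an estimating counter gives when reads are shared between genes or transcripts, against 34.1% of all genes. Identifiers starting with Sobic.001 made up 10 members (29.4%), compared with 18.8% of those genes, and Sobic.005 made up 5 (14.7%), compared with 4.61%. Both Sobic.002 and Sobic.003 had 2 members (5.88%), with 12.9% and 14.4% of those genes. Most identifiers end in 00, and 5 members (14.7%) did not, compared with 4.70%. No pair of members was closer than 37 places in the table.

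At the limits of the rule, the 3 members just inside had a highest captured median of 0.238, 0.245 and 0.247 of the whole stem median, and the 3 genes just outside had 0.253, 0.259 and 0.282. The 3 members with the lowest whole stem library were at 5.03, 5.13 and 5.37 CPM there. The next 3 genes below, which met the other limit, were at 4.83, 4.56 and 4.53 CPM.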

How the data were processed

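The values were the authors' deposited expected counts per gene, 34117 genes in 24 libraries, not normalized. Salmon, FastQC and alevin are named in the submitters' processing notes. No version, index, annotation or genome build is named in these sources. Of the values, 10.5% were not whole, and they were rounded for count models only. CPM used column totals. The members and the tests were chosen with earlier results of these data known. The printed genes were, by rule, the 2 with the highest whole stem median, the 2 with the largest fold over the highest captured library (a library under 3 counts set to 3) and the 2 with the smallest adjusted p among captured types. Genes behind counts of 5 or fewer, and Sobic.006G026100, were added after their values were seen. Gene lists and sequence features planned by product name could not be built, since 0 identifiers matched the reference table.

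The captured types were compared in R 4.3.3 with edgeR 4.0.16 (filterByExpr, TMM, robust dispersion, quasi-likelihood F test, Benjamini-Hochberg adjustment) over 20 libraries. Alternatives used DESeq2 1.42.0 and limma 3.58.1. The fit and the rule were tested on simulated data. Over 60 pairs of libraries with the same number in different groups, the correlation of deviations from group means had a median of 0.00283. It ran from -0.104 to 0.174 and exceeded 0.1 in 7. Pairs with different numbers had a median of -0.00575. No 2 libraries were identical, and the labels do not tie a replicate number to a plant across groups.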

Additional observations from a re-analysis of the deposited data

Results flagged for a closer look

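A library was singled out when its gap to the nearest of the other 3 in its group, as a share of the group's range, exceeded Dixon's critical value. Of 56 groups of 4 examined, for the summed members and the 10 named genes, 25 were singled out. Chance flags about 1 in 20 groups of unselected values, a rate that cannot be set against this count, since the rule used these levels, some genes were named after their values were seen, and 10 of the 25 groups hold 3 zeros and 1 other value. Pith parenchyma replicate 2 was the high library in 8 of the 25. It held 5925 CPM summed over members, next to 453, and 1288 CPM of Sobic.006G211701, 583 of Sobic.001G304100, 1310 of Sobic.009G197300, 179 of Sobic.001G354700, 29.9 of Sobic.001G268700, 9.56 of Sobic.001G513700 and 2.86 of Sobic.010G176800.

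Epidermis replicate 1 stood apart in the sum, at 1123 CPM, and in Sobic.006G211701, at 915 CPM. Xylem sclerenchyma replicate 4 stood apart in the sum at 387 CPM, and whole stem replicate 2 in Sobic.006G211701 at 4240 CPM. For Sobic.006G026100 the high libraries were epidermis replicate 2 at 21.6 CPM, phloem replicate 3 at 163, vascular parenchyma replicate 3 at 329 and xylem sclerenchyma replicate 3 at 46.1.

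The remaining cases were low values in groups otherwise at or near 0. Sobic.001G542100 was at 3.70 CPM in epidermis replicate 3, 3.61 in phloem replicate 1 and 13.3 in xylem sclerenchyma replicate 1. Sobic.001G513700 was at 1.81 CPM in phloem replicate 1 and 4.88 in vascular parenchyma replicate 1. Sobic.009G197300 was at 0.103 CPM in epidermis replicate 1, Sobic.001G158700 at 2.54 in vascular parenchyma replicate 2, and Sobic.010G176800 at 0.928 in epidermis replicate 4 and 1.60 in xylem sclerenchyma replicate 3.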

How the results depend on the processing

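The number of genes meeting the rule, 34, depended on its limits. It was 22 with 10 CPM and 204 with 1 CPM required in whole stem, 115 and 17 with captured medians of at most 50% and 12.5%, 7 with group means and 2 when every captured library had to be at most 25%. It was 32 with TMM library sizes or without epidermis replicates 1 and 2 and phloem replicate 3. Leaving out a replicate number in all groups, or a single library, gave 32 to 81, with 53 without whole stem replicate 4 and 49 without pith parenchyma replicate 2, a set that held all 34. With that library, epidermis replicates 1 and 2 and phloem replicate 3 all left out, it was 42. Settings that left out single libraries here, and those for the counts of non-overlap below, were added after seeing the data.

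The count of 4 members differing among captured types was 2 with limma voom and quality weights, 1 with the replicate block, 6 with DESeq2 and 2 to 5 with 1 library left out. DESeq2 gave no p for Sobic.009G197300 and Sobic.001G354700, so its 6 calls did not include all 4 of the edgeR calls. The limma voom calls were Sobic.001G268700 (adjusted p 0.0369) and Sobic.001G158700 (0.0203), the latter not called by edgeR. By limma voom, Sobic.009G197300 (0.06), Sobic.001G304100 (0.289) and Sobic.001G354700 (0.376) were not called. Members clear of all captured libraries numbered 3, and 3 to 22 with 1 library left out, with 22 without pith parenchyma replicate 2 and 5 without whole stem replicate 4. The share of values at most 25% in a left-out replicate ran from 64.7% to 80%, against 85.1% ± 4.86 (SD, n = 4) in replicates used for choosing. The median summed level in pith parenchyma was 370 CPM with all 4 libraries. It was 287 CPM without replicate 2 or without replicate 3, and 453 CPM without replicate 1 or without replicate 4. The causes of these differences were not tested.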
